A study of Mus musculus with 8 samples.

Results

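Open chromatin was examined around 7 genes that carry or answer the Sonic hedgehog (Shh) signal in granule neuron progenitors (GNPs) of the mouse cerebellum: the transcription factor genes Gli1, Gli2 and Gli3, the inhibitor gene Sufu, and the growth genes Mycn, Ccnd1 and Ccnd2. The members are the ATAC-seq peaks that overlap the annotated body of any of these genes or the 50 kb on either side of it, in the mm10 mouse genome with the GENCODE M21 annotation. They comprised 158 of 152984 peaks in the wild-type (WT) list, 130 of 106974 in the heterozygous (het) list and 184 of 174407 in the mutant list. Together these were 472 of 434365 peaks. After peaks of the 3 lists less than 300 bp apart were joined, they formed 187 of 190582 regions.

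ATAC-seq uses the Tn5 transposase to insert sequencing adapters where DNA is accessible, and the authors' caller, MACS2, marks a peak where the tags pile up. The labels name 3 genotypes of Chd7, a chromatin remodelling enzyme: Chd7 wild type (3 libraries), het (2 libraries) and mutant (3 libraries), all from GNPs taken fresh at postnatal day 7 (P7) without treatment. Per the study's text, GNPs were enriched on percoll gradients from pups whose sex was not discriminated, het cells were Atoh1-Cre::Chd7 f/+ and homozygous mutant cells Atoh1-Cre::Chd7 f/f, and the WT and mutant replicates were technical. Each deposited list was called on the pooled libraries of a genotype, so replicate error cannot be given for any value and differences between genotypes are described without a test. Atoh1-Cre deletes in the granule lineage, and the study notes Chd7 protein left in the posterior lobe, for which it names weaker recombination as probable. The strain is C56Bl6/J in the labels and C57BL/6N in the study's methods.

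Shh from Purkinje cells keeps GNPs dividing in the outer layer of the young cerebellum. Without the ligand, the receptor Ptch1 holds Smo inactive, Sufu retains the Gli proteins, and Gli3 and part of Gli2 are processed to repressors. With the ligand, Smo is released, Gli2 acts as the main activator, Gli1 amplifies the output as a direct target, and Mycn and the D-type cyclins drive entry into the cell cycle.

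The WT and mutant lists were of like depth, with 50394313 and 51030229 tags after filtering, against 30923002 for het. The het list was called from another alignment with longer tag extension (200 bp, against 90 bp for WT and 88 bp for mutant), so het heights are given but compared only as ranks. Tag size also differed, at 107 bp for WT and 76 bp for mutant, and its part in the results was not tested. At an annotated start site of Chd7 itself the pileup was 57 tags in WT, 69 in het and 51 in mutant, which does not bear on the deletion because the floxed exon need not lie in a peak. Of 6 GNP markers, 5 had a start-site peak in WT and het and 6 in mutant. Start-site peaks were also found in WT at 2 of 3 Purkinje cell, 2 of 3 astrocyte and Bergmann glia, 3 of 4 oligodendrocyte lineage, 1 of 3 microglia, 2 of 3 endothelium and 3 of 3 inhibitory interneuron markers, with none at Pcp2, Gfap, Sox10, Cx3cr1, Aif1 or Pecam1 in any list. The median within-list rank of the markers with a peak was 80.8 in WT and 86.3 in mutant for GNPs, 91.0 and 91.8 for Purkinje cells, 74.5 and 70.5 for the oligodendrocyte lineage, 70.0 and 67.9 for endothelium, 44.8 and 48.6 for astrocytes and Bergmann glia, and 42.3 and 45.2 for inhibitory interneurons. Start-site peaks at these markers therefore do not separate the cell types, the part of other cells in the results was not tested, and in bulk cells a smaller share of a cell type and less open chromatin per cell cannot be told apart.

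Sequences are shown first for the regions on which the height results turn, and for the sole member window with a Gli consensus. Each line gives the reference genome (GRCm38.p6, the same build as mm10, plus strand, 5′ to 3′) from 100 bases before to 100 bases after the summit of the region's strongest peak. Capitals mark the Gli site GACCACCCA (also searched with any base at its position 5, GACCNCCCA, which includes the former), the E-box CAGCTG bound by Atoh1 and related factors, and the Zic-type site CAGCAGG, each on both strands. Within Gli2, the window with the Gli site lies in an intron and had 42 tags in WT, 61 in het and 52 in mutant:
Gli2 chr1:118969436-118969636: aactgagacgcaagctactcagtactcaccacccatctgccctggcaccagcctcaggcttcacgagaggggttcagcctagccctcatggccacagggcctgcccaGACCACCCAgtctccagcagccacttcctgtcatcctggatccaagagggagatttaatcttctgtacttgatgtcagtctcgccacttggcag
The Gli3 windows that follow were at least 1.5-fold higher in mutant and all lie in introns:
Gli3 chr13:15517175-15517375: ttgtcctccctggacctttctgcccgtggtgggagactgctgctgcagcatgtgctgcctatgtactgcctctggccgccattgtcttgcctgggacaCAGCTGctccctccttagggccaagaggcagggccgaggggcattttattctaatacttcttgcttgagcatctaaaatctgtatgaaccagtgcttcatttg
Gli3 chr13:15537707-15537907: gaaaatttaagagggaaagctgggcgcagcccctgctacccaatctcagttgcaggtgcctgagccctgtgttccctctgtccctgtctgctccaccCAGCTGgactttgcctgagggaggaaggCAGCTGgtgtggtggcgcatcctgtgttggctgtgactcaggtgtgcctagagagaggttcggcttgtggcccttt
Gli3 chr13:15545428-15545628: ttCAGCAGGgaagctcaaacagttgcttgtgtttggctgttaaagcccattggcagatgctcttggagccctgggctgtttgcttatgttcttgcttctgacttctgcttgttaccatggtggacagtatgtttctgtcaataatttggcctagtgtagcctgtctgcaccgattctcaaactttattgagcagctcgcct
Gli3 chr13:15715216-15715416: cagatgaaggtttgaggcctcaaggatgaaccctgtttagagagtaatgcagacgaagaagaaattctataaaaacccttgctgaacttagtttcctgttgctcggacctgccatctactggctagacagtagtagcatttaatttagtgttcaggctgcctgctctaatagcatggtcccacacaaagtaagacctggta
The remaining Gli3 window, over a coding exon and the next intron, was at least 1.5-fold lower in mutant, as were the windows of Sufu and Ccnd2 after it:
Gli3 chr13:15644289-15644489: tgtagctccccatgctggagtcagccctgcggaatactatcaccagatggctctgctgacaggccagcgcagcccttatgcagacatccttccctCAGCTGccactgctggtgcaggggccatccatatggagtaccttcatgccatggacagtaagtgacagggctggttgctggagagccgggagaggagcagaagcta
Sufu chr19:46362168-46362368: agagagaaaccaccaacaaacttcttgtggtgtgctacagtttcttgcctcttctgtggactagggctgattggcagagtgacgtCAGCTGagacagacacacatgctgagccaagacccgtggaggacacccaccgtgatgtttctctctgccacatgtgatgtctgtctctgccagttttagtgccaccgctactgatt
Sufu chr19:46434640-46434840: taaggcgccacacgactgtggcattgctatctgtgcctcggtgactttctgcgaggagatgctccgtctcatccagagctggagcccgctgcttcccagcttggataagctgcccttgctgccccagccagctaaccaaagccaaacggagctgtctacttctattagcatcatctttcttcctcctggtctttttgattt
Ccnd2 chr6:127132814-127133014: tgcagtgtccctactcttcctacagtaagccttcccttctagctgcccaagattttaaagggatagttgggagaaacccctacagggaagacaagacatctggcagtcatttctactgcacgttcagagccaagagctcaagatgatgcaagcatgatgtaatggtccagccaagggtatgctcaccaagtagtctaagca

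A Gli site stood in 1 of the 187 member windows (0.535%, Wilson 95% confidence interval (CI) 0.0945 to 2.97%), against 0.287% of 190517 windows over all regions. With any base at position 5 it was the same single member window, against 0.686% of all windows. The E-box was in 50 windows (26.7%, CI 20.9 to 33.5%), against 23.3% of all, and the Zic-type site in 17 (9.09%, CI 5.75 to 14.1%), against 11.8%. Member windows thus held each motif about as often as other regions did, within their intervals. Their median GC content was 54.7%, against 50.7% over all windows. Of the 8 windows printed for their height ratio, 4 held an E-box and 1 a Zic-type site.

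The windows of the 7 genes kept most of their peaks between WT and mutant. Of 158 WT member peaks, 18 had no overlapping mutant peak (11.4%, CI 7.33 to 17.3%), where 22.8% of all WT peaks had none. Of 184 mutant member peaks, 41 had no WT peak (22.3%, CI 16.9 to 28.8%), where the figure over all mutant peaks was 30.7%. In both directions the member share was below that of the whole list. Intervals cover counting error only, since the pooled lists leave no replicate error, and neighbouring peaks are not independent.

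Member shares in the comparisons with het were also below those of the whole lists, within the intervals for the het peaks. No het peak was found for 40 WT member peaks (25.3%, CI 19.2 to 32.6%, against 36.9% of all WT peaks) and for 59 mutant member peaks (32.1%, CI 25.7 to 39.1%, against 41.3%). In the other direction, 16 of 130 het member peaks lacked a WT peak (12.3%, CI 7.72 to 19.1%, against 13.3%) and 11 lacked a mutant peak (8.46%, CI 4.79 to 14.5%, against 10.7%). These comparisons differ in depth and processing as well as in genotype. Of the 187 regions, 105 were found in all 3 lists (56.1%, CI 49.0 to 63.1%, against 45.7% of all regions). Another 30 were found in mutant alone (16%, CI 11.5 to 22%, against 20.1%) and 13 in WT alone (6.95%, CI 4.11 to 11.5%, against 13.3%).

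**Figure D1:**
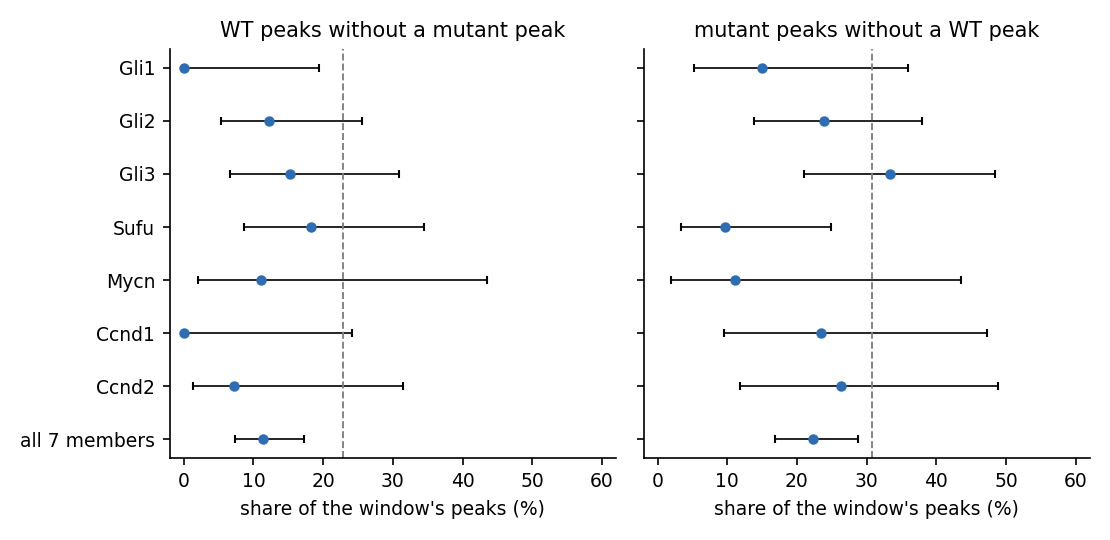
Share (%) of peaks in each gene's window that lack an overlapping peak in the other list, for WT peaks (left) and mutant peaks (right); points are shares, bars Wilson 95% confidence intervals, and the dashed lines the shares over the whole lists (22.8% and 30.7%). Gli3 is the sole window whose mutant share, 33.3%, lies to the right of its dashed line, and its interval spans the line.

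Unshared peaks, that is, WT peaks without a mutant peak and the reverse, were weak, among the members as in the whole lists. Unshared WT member peaks had 7 to 26 tags (median 10) and a median −log10 q of 3.10, against 8.67 for the shared WT member peaks (3.34 and 9.21 over the whole list). Unshared mutant member peaks had 8 to 31 tags (median 14) and a median −log10 q of 3.86, against 10.54 for shared ones (3.81 and 10.50 over the whole list). A −log10 q of 10 or more was reached by 0.734% of all unshared WT peaks and 1.45% of all unshared mutant peaks. Among members it was reached by none of the 18 and by 1 of the 41, a Gli3 intron peak at chr13:15531710-15531917 with 20 tags and a −log10 q of 12.14 that also had a het peak. Among the unshared WT peaks 22.2% had a het peak (13.2% over all unshared WT peaks), and among the unshared mutant peaks 22% did (15.2% over all).

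Heights were compared over the 124 member regions with a peak in both WT and mutant. Height is the pileup, the number of extended tags at the summit, divided by the tags of its list, and each log2 ratio of mutant over WT was centred by subtracting 0.07, the median over all 111314 such regions. The members had a median log2 ratio of −0.01. A centred ratio at least 1.5-fold lower in mutant was found in 5 regions, where 5.1% of all shared regions were as low, and a ratio at least 1.5-fold higher in 6, where 5.48% were as high. Among the 81 member regions with a −log10 q of 10 or more in either list, 4 were lower and 4 higher, against 5.3% and 6.4% of all such regions. The counts of both directions are thus near what the whole lists hold, and the genes differ in which regions make them up.

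**Figure D2:**
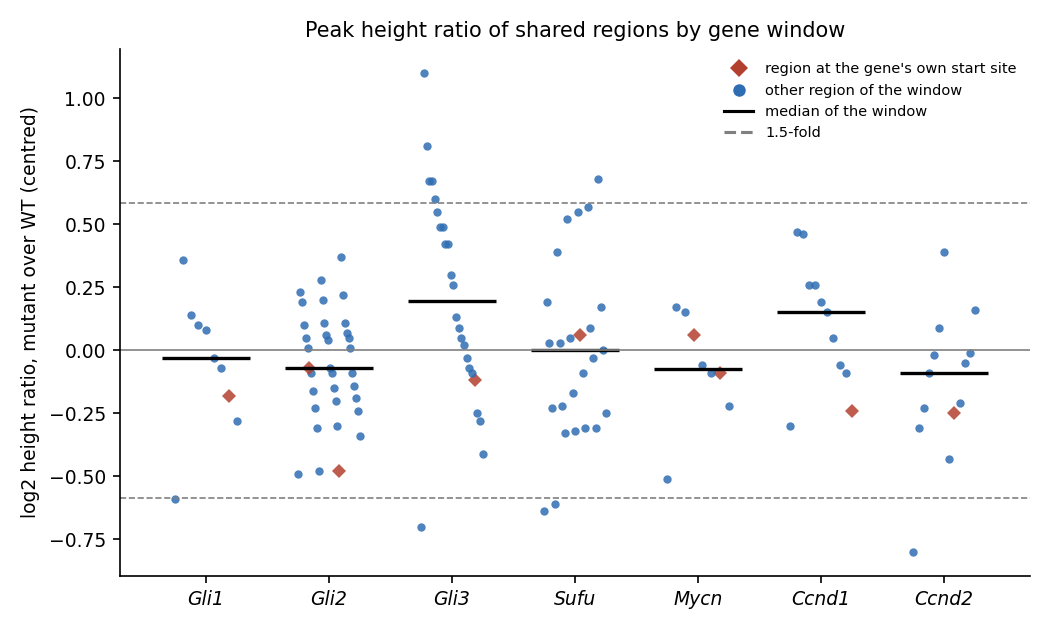
Centred log2 ratio of peak height, mutant over WT, for each of the 124 shared regions by gene window; diamonds are regions at the gene's own start site, circles other regions, black bars the median of the window, and dashed lines 1.5-fold. The median bar of Gli3 sits at 0.20 and that of Ccnd1 at 0.15, while the other 5 lie between −0.09 and −0.00, and no diamond crosses a dashed line.

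A counting interval (exact, conditional on the tags of both lists, 95%) of the centred ratio was computed for each region. It left out 1 on the high side for 1 of the 124 member regions (0.806%), where 0.479% of all shared regions did. On the low side it did so for none, where 0.801% did. A single such region is near the share over all regions, so it is not read as a result about the members. That region lies in a Gli3 intron and is described with Gli3. For the other member regions the interval held 1, so no difference in height was detectable there at this depth.

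Each of the 7 genes had at least 1 start-site region with a peak in all 3 lists. Of 11 regions at the members' own start sites (within 1 kb), 9 were shared, with log2 ratios from −0.48 to 0.06 and a median of −0.12. None was 1.5-fold lower or higher. The median over 16722 shared start-site regions of any gene was −0.02.

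**Figure D3:**
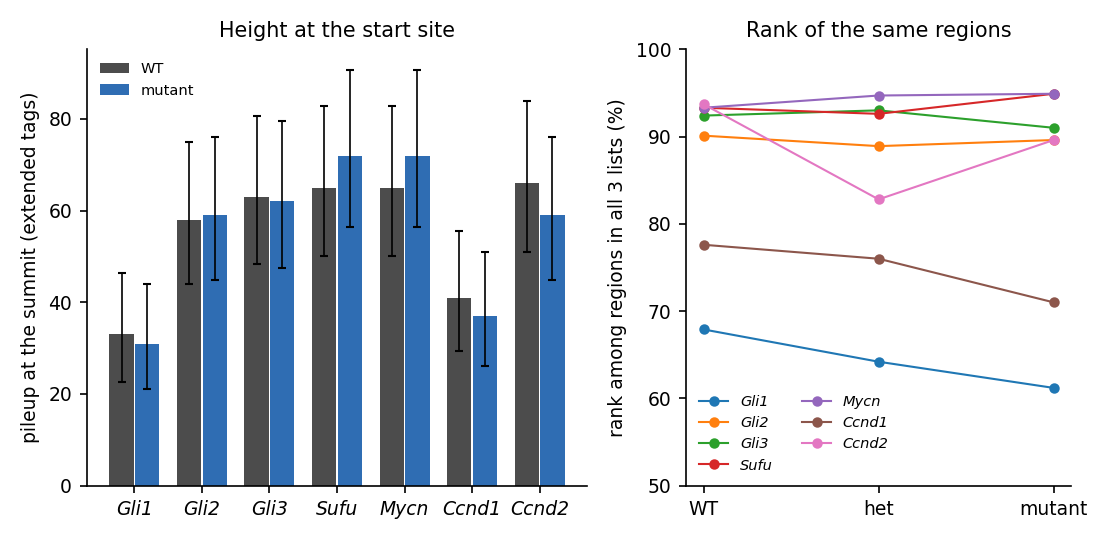
Left: pileup (extended tags) at the tallest start-site region of each gene in WT and mutant, with exact Poisson 95% intervals. Right: rank (%) of the same regions by pileup among the 87021 regions present in all 3 lists, for WT, het and mutant, joined by gene. The WT and mutant bars overlap in their intervals for every gene, and Gli1 has the lowest rank in each list (67.9, 64.2 and 61.2).

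Gli1, the amplifier of the pathway and the usual marker of its activity, lies on chromosome 10 (127329882 to 127341974, minus strand). Its window, which has 11 other genes, held 16 WT, 10 het and 20 mutant peaks. At the start site (chr10:127341800-127342705) the pileup was 33 tags in WT, 37 in het and 31 in mutant, a log2 ratio of −0.18 (centred ratio 0.881, counting interval 0.522 to 1.48). By the tallest start-site region of each gene, Gli1 was the lowest of the Gli factors in all 3 lists. The strongest other region of the window, 30.2 kb downstream at the start site of Mars (methionyl-tRNA synthetase), had 72 (WT), 101 (het) and 73 (mutant) tags. A weak region in a Gli1 exon, also at the start site of the gene Gm47200, had 17 tags in WT and 12 in mutant with no het peak. Its log2 ratio of −0.59 (1.51-fold lower, counting interval of the ratio 0.289 to 1.47) made it 1 of the 5 lower member regions. With fold enrichment as height it was not past 1.5-fold. All 16 WT peaks had a mutant peak, and 3 of the 20 mutant peaks lacked a WT peak (15%, against 30.7% of the whole list). The strongest of these 3 lay 1.25 kb into the first intron, with 22 tags and a −log10 q of 3.83. Over its 9 shared regions Gli1 had a median log2 ratio of −0.03.

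Gli2, the principal activator, spans 219 kb on chromosome 1 (118834132 to 119053619, minus strand) and had the most regions of the members, 49. Its window held 41 WT, 32 het and 46 mutant peaks. No mutant peak was found for 5 of the WT peaks (12.2%, against 22.8% of the whole list). No WT peak was found for 11 of the mutant peaks (23.9%, CI 13.9 to 37.9%, against 30.7%). The main start-site region (chr1:119053330-119054419) had 58 tags in WT, 78 in het and 59 in mutant, a log2 ratio of −0.07. A smaller region next to it had 30 tags in WT and 23 in mutant, a log2 ratio of −0.48 with a counting interval of the ratio from 0.399 to 1.28. None of the 34 shared Gli2 regions reached 1.5-fold in either direction, and their log2 ratios ran from −0.49 to 0.37 around a median of −0.07. The strongest distal region, downstream of the gene at chr1:118789200-118790270, had 56 tags in WT, 73 in het and 47 in mutant (log2 ratio −0.34). The strongest unshared mutant peak lay in an intron, with 22 tags, a −log10 q of 8.61 and no het peak, and the strongest unshared WT peak had 12 tags, a −log10 q of 3.55 and a het peak.

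Gli3, the main repressor of the family, gave most of the regions that were higher in mutant. It spans 267 kb on chromosome 13 (15463235 to 15730026, plus strand), and its window held 33 WT, 28 het and 42 mutant peaks in 46 regions. Of its 24 shared regions 16 had a ratio above 0, 5 were at least 1.5-fold higher in mutant and 1 was at least 1.5-fold lower. With the caller's fold enrichment over local background as height, 2 of these 5 remained past 1.5-fold. Its median log2 ratio of 0.20 was the highest of the 7 members. Among the 10723 protein-coding genes with 8 or more shared regions in the same kind of window, 96.2% had a median at or below that of Gli3, and the central 95% of genes ran from −0.22 to 0.22. Windows of neighbouring genes overlap in that count.

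The higher regions of Gli3 lay in its body and not at its start site. The start-site region (chr13:15462819-15464628) had 63 tags in WT, 94 in het and 62 in mutant, a log2 ratio of −0.12, and was among the strongest regions of every list, with ranks of 92.4, 93.0 and 91.0. Away from the start site, the 17 shared regions within the gene had a median log2 ratio of 0.42 and 13 lay above 0, where the 51144 shared regions inside genes over the whole lists had a median of 0.01 and 51% above 0. The 3 shared upstream regions had a median of −0.03 and the 3 downstream 0.05. Of the 35 regions within the gene away from the start site, 12 had a mutant peak and no WT peak (34.3%, against 24.2% of all regions inside genes) and 4 the reverse (11.4%, against 14.4%). The same counts for Gli2 were 9 and 3 of 36. The 24 shared regions within Gli2, a gene of like length, had a median of −0.08 and 11 above 0. The division of the windows by position was chosen after these values were seen.

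The largest single ratio was at chr13:15517103-15517550, 53.3 kb into the gene. It had 14 tags in WT, 20 in het and 32 in mutant, a log2 ratio of 1.10 and a centred ratio of 2.14 (counting interval 1.11 to 4.35). Its rank among the regions found in all 3 lists was 17.1 in WT, 30.4 in het and 63.1 in mutant, so het stood between the others. The tallest of the higher regions, at chr13:15714980-15715487, had 23 tags in WT, 26 in het and 39 in mutant (ratio 1.59, counting interval 0.927 to 2.79, log2 ratio 0.42 with fold enrichment), with ranks of 47.2, 46.1 and 73.6. Here het stood with WT.

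Another intron region, at chr13:15545341-15545632, had 18 tags in WT, 26 in het and 29 in mutant (log2 ratio 0.60, and 0.28 with fold enrichment). At chr13:15537291-15537965 the pileup was 13, 20 and 22 tags (log2 ratio 0.67, and 0.33 with fold enrichment), but this region joins 2 WT peaks of 13 and 12 tags with 2 mutant peaks of 13 and 22 tags. When overlapping peaks alone were joined, the first pair gave a log2 ratio of −0.09 and the second, on which the printed window is centred, 0.78. A weak region 10.5 kb into the gene had 8, 13 and 15 tags (log2 ratio 0.81). The 4 higher regions with a −log10 q of 10 or more in either list had 13 to 23 WT tags. The median WT pileup of all regions away from start sites was 18 tags. Among the regions in all 3 lists, these 4 had WT ranks from 13.4 to 47.2, where the median away from start sites was 44.4.

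A single Gli3 region was past 1.5-fold in the other direction. At chr13:15644236-15644559, over a coding exon 180 kb into the gene, the pileup was 38 tags in WT, 30 in het and 25 in mutant, 1.62-fold lower in mutant (ratio 0.617, counting interval 0.357 to 1.05). Its ranks of 74.4, 53.9 and 47.9 put het between WT and mutant. The strongest distal region, downstream of Gli3 at chr13:15758701-15760313, had 67 (WT), 107 (het) and 68 (mutant) tags, and a region 278 kb from the start site had 42, 59 and 60 tags (log2 ratio 0.42). Of the 42 mutant peaks of the Gli3 window, 14 lacked a WT peak (33.3%, CI 21 to 48.4%), near the 30.7% of the whole list. Over the 16 regions within the gene that were in all 3 lists, the median rank was 24.7 (WT), 30.4 (het) and 40.9 (mutant), and the rank exceeded that of WT in 13 regions for mutant and in 8 for het. Over the 21 such regions within Gli2, the median ranks were 70.7, 74.5 and 74.8. There the rank exceeded that of WT in 10 regions for mutant and in 18 for het. With fold enrichment as height, the median log2 ratio within Gli3 was 0.28.

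**Figure D4:**
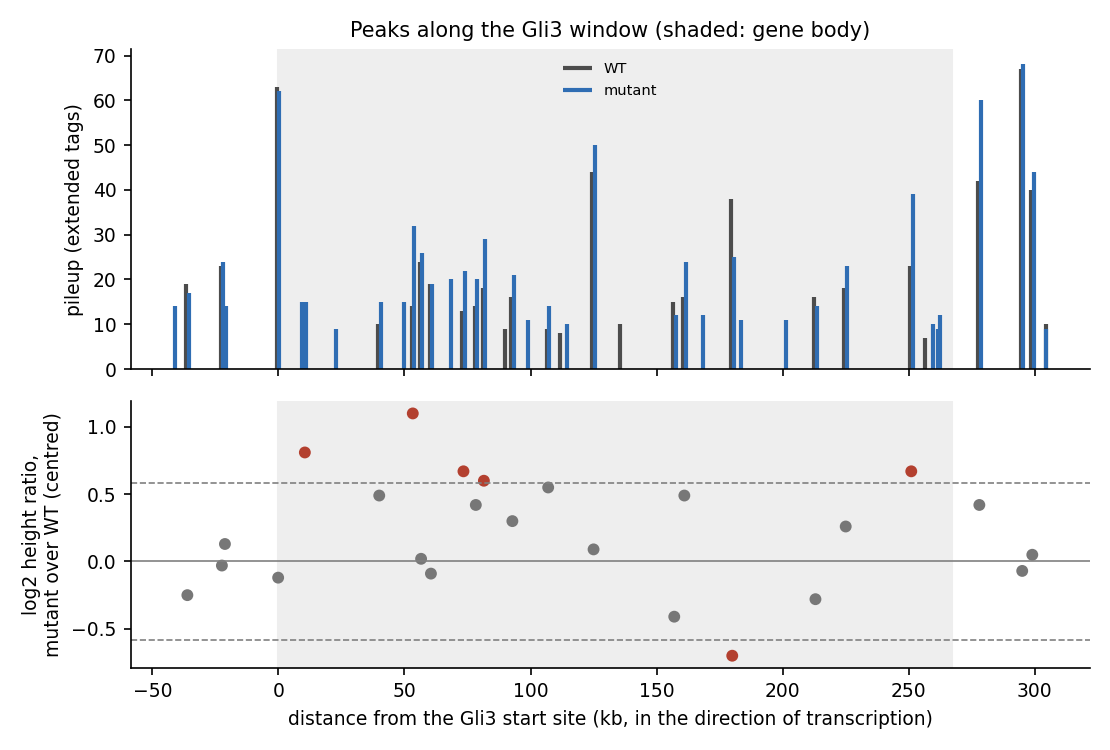
Upper: pileup (extended tags) of each WT and mutant peak region by distance (kb) from the Gli3 start site, with the gene body shaded; bars of a region are drawn side by side. Lower: centred log2 height ratio, mutant over WT, of the 24 shared regions, with those past 1.5-fold (dashed lines) in red. The 5 higher regions lie inside the gene, 4 of them in its first 81.5 kb, while the start-site region sits at −0.12.

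Sufu, the inhibitor that binds Gli proteins, lies on chromosome 19 (46396896 to 46488804, plus strand) in a dense window of 33 WT, 26 het and 31 mutant peaks. Its start site (chr19:46396652-46397263) had 65 tags in WT, 92 in het and 72 in mutant, a log2 ratio of 0.06. Over 25 shared regions the median log2 ratio was −0.00, with 2 regions at least 1.5-fold lower and 1 higher. The lower ones were an intron region at chr19:46434596-46435061 with 33, 28 and 23 tags (1.53-fold lower, ratio 0.654, counting interval 0.367 to 1.15) and a region 34.6 kb upstream, within Mfsd13a, with 19 tags in WT, none called in het and 13 in mutant (1.56-fold lower). Without centring their log2 ratios were −0.54 and −0.57, short of 1.5-fold. The higher one was a weak region downstream with 17, 31 and 29 tags. The strongest distal region, in an intron 25.6 kb from the start site, had 68, 87 and 62 tags. Sufu was the sole member with more WT peaks lacking a mutant peak (6, 18.2%) than the reverse (3, 9.68%). Both shares were below those of the whole lists (22.8% and 30.7%). An unshared WT peak and an unshared mutant peak among these lay within 300 bp of each other.

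Mycn, a proliferation gene of the Myc family and a direct Gli target in GNPs, is short (5.82 kb, chromosome 12, 12936093 to 12941914, minus strand) and had 9 WT, 6 het and 9 mutant peaks. The tallest region at its start site (chr12:12941625-12943006) had 65 tags in WT, 103 in het and 72 in mutant (log2 ratio 0.06), and a region over the first exon 38, 58 and 38 tags (−0.09). The tallest member peak in the WT and mutant lists lay 35.8 kb downstream of the Mycn start site, at the start site of the non-coding gene 4930519A11Rik, with 96 (WT), 175 (het) and 98 (mutant) tags and ranks of 99.4, 99.7 and 99.3. None of its 8 shared regions reached 1.5-fold, and their median log2 ratio was −0.08. A single peak was found in WT without mutant (8 tags) and a single one in mutant without WT (9 tags), both without a het peak.

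The D-type cyclins pair with Cdk4 and Cdk6 to start the cell cycle. Ccnd1 (chromosome 7, 144929931 to 144939925, minus strand) had 12 WT, 12 het and 17 mutant peaks, and its start site (chr7:144939488-144939907) 41 tags in WT, 50 in het and 37 in mutant, a log2 ratio of −0.24 (ratio 0.847, counting interval 0.528 to 1.35). A second start-site region was called in mutant alone, with 20 tags and a −log10 q of 1.8. None of the 11 shared Ccnd1 regions reached 1.5-fold, but 10 kb windows moved their median log2 ratio from 0.15 to −0.01. The strongest distal region, 24.5 kb from the start site at the start of LTO1, had 52, 66 and 45 tags. All WT peaks had a mutant peak, and 4 mutant peaks lacked a WT peak (23.5%, against 30.7% of the whole list). The strongest of these 4 had 15 tags and a −log10 q of 4.89.

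Ccnd2 (chromosome 6, 127125162 to 127152193, minus strand) held the largest lower ratio of the members. An intron region 18.1 kb from the start site (chr6:127132715-127133095) had 31 tags in WT, 43 in het and 19 in mutant, 1.74-fold lower in mutant (ratio 0.575, counting interval 0.307 to 1.05), and ranks of 64.5, 70.5 and 29.7. Het was thus above WT there. At the start site (chr6:127150913-127151345) the pileup was 66, 62 and 59 tags (log2 ratio −0.25), with ranks of 93.7, 82.8 and 89.6. A second start-site region had 36 tags in het and 31 in mutant and no WT peak. It lay in an intron of the annotated gene, 0.723 kb upstream of the nearest Ccnd2 start site. The strongest distal region, 41.4 kb from the Ccnd2 start site at the start of Tigar, had 66, 121 and 66 tags. Over 13 shared regions the median log2 ratio was −0.09. The strongest WT peak of any member without a mutant peak lay downstream, with 12 tags, a −log10 q of 5.37 and a het peak.

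In order of WT pileup at the tallest start-site region, Ccnd2 (66 tags), Sufu (65), Mycn (65), Gli3 (63) and Gli2 (58) stood above Ccnd1 (41) and Gli1 (33). Exact Poisson intervals overlapped between all neighbours in this order, and the intervals of Gli1 (22.7 to 46.3) and Ccnd2 (51.0 to 84.0) did not. In mutant, Sufu and Mycn stood first with 72 tags each, and Ccnd1 (37) and Gli1 (31) remained last.

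By the within-list ranks of the strongest start-site peak in the 3 lists, compared over the 14063 protein-coding genes with such a peak in each, the nearest gene to Gli1 was Dapk2 (Euclidean distance 1.5 rank points), to Gli2 Fahd2a (0.35), to Gli3 Fabp7 (0.71), to Sufu Ttf1 (0.35), to Mycn Nedd4l (0.25), to Ccnd1 Tgm5 (1.79) and to Ccnd2 Pfdn1 (1.95). With 3 values per gene, these are descriptions of strength alone.

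Other genes of the pathway were described in the same way. Windows of the ligand, receptors and co-receptors (Shh, Ptch1, Smo, Boc, Cdon, Gas1, Hhip and Gpr161) held 99 WT and 124 mutant peaks, of which 12.1% (CI 7.07 to 20%) and 22.6% (CI 16.1 to 30.7%) were unshared. Their 74 shared regions had a median log2 ratio of 0.01, with 2 lower and 1 higher (2.7% and 1.35%, against 5.1% and 5.48% of all shared regions). For the receptor gene Ptch1, itself a Gli target, none of 12 shared regions reached 1.5-fold (median −0.04), and for the co-receptor Cdon 1 of 11 was higher (median 0.19).

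Regulators of Gli proteins (Kif7, Spop, Btrc, Gsk3b, Prkaca, Csnk1a1, Stk36, Evc and Evc2) held 129 WT and 130 mutant peaks, of which 20.9% (CI 14.8 to 28.7%) and 21.5% (CI 15.3 to 29.4%) were unshared, and 7 of 90 shared regions were lower (7.78%) and 5 higher (5.56%), with a median of −0.01. Spop, a ubiquitin ligase adaptor for Gli3, had 4 of the 7 lower regions among its 18, of which 1 had a −log10 q of 10 or more. Relatives and cell cycle partners (Myc, Mycl, Max, Ccnd3, Cdk4, Cdk6, Ccne1, Ccne2, E2f1, Rb1, Cdkn1b, Foxm1 and Bmi1) had 8.33% (CI 5.03 to 13.5%) of WT and 19.3% (CI 14.5 to 25.3%) of mutant peaks unshared, and 3 lower (2.21%) and 6 higher (4.41%) among 136 shared regions (median 0.03). The higher regions lay at Cdkn1b, an inhibitor of cyclin-dependent kinases (2 of 10 shared regions), and Foxm1, a mitotic transcription factor (2 of 11). The others lay at Mycl (1 of 12) and Ccnd3 (1 of 11). Over the list, the higher share of 4.41% was below the 5.48% of all shared regions. The unshared shares of these lists also lay below 22.8% and 30.7%, the regulators' WT share and the receptors' mutant share within their intervals.

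Most member regions lay inside genes. At the summit, 123 of 187 (65.8%, against 46.3% of all regions) were inside a gene away from start sites, 26 (13.9%, against 10%) at a start site and 38 (20.3%, against 43.7%) intergenic, a makeup that the choice of gene windows itself favours. At the 50 kb limit, the outermost region inside the Sufu window, 47.5 kb from the gene, had 51, 74 and 44 tags in WT, het and mutant. The first outside it, at 56.9 kb, had 21, 37 and 30 (log2 ratio 0.42). For Mycn the first region outside, at 53.3 kb, had 17, 11 and 11 tags (log2 ratio −0.72), past 1.5-fold lower. The first outside regions of Gli2 and Ccnd1 had log2 ratios of −0.42 and 0.11. Those of Gli1, Gli3 and Ccnd2 were not shared.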

How the data were processed

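GNP ATAC-seq libraries (8, 3 genotypes) were pooled by genotype by the authors, who deposited 1 MACS2 2.1.0.20150731 narrow-peak list each (q-value cutoff 0.05, mm10). Per the file headers, pileup is a signal, the height in extended tags at the summit, without scaling to sequencing depth. The caller's fold enrichment is a ratio of pileup to local background, and −log10 q values were deposited with each peak. At most 1 tag per position was kept, which limits pileup to 180 tags in WT and 176 in mutant, above the tallest members (96 and 98). WT and mutant alignments came from a STAR folder and het alignments from a bowtie folder (shift of 100 bp upstream), while the study's methods name bowtie throughout. In all, 0 value columns were left without a group.

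Peaks counted as shared when overlapping by at least 1 bp. Peaks less than 300 bp apart were joined into regions, the highest peak of each list giving its height. Heights divided by the tags of a list were compared as centred log2 ratios, with no test, since pooling leaves no replicate. Ranks are the percentage of peaks of a list at or below a −log10 q. Beside single regions they are instead ranks by pileup among the 87021 regions in all 3 lists, as a percentage. Regions of equal pileup were given their mean rank. Named were, for each member, its start-site regions, the strongest other region by WT −log10 q, the strongest unshared peak of each list, and shared regions past 1.5-fold with a −log10 q of 10 or more; other regions were named after their values were seen. Members and lists were chosen with earlier results of these data known. An entry of the receptor list is not reported here. The code was tested on simulated lists. Python 3.11.15, numpy 2.4.6, pandas 2.3.3 and scipy 1.17.1 were used.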

Additional observations from a re-analysis of the deposited data

How the results depend on the processing

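No paired analysis was possible because each deposited list pools the libraries of a genotype, and leaving out single replicates was not run for the same reason. Of 65 alternative values, 46 stayed near the main value, that is, within the Wilson interval for a share, the 95% order-statistic interval for the overall median and 1.5 times for a count, and 19 moved. With 50% reciprocal overlap, the unshared shares were 25.3% of WT and 35.9% of mutant peaks between these lists, 39.2% of WT and 40.2% of mutant peaks against het, and 26.2% and 15.4% of het peaks against WT and mutant. Counting peaks at or past a −log10 q of 5, against the complete other list, the same shares were 0.952%, 7.20%, 10.5%, 12.0%, 3.03% and 1.01%. Shares over all peaks are not given at these settings, so these values do not set the members against the whole lists. Without centring, the median log2 ratio was 0.07, with 2 regions lower and 10 higher. Higher regions numbered 3 with fold enrichment as height and 1 without Gli3, an alternative added after seeing the data; past 2-fold there were 0 lower and 1 higher. Joining overlapping peaks alone split the Gli3 region at chr13:15537291-15537965 into pieces at −0.09 and 0.78. Of 4 higher Gli3 regions with a −log10 q of 10 or more, 1 stayed past 1.5-fold with fold enrichment as height. Both such lower Sufu regions dropped under 1.5-fold without centring, and 1 did with fold enrichment. The Ccnd1 median, 0.15, was 0.01 with fold enrichment and −0.01 with 10 kb windows, and the Sufu median was −0.22 over regions with a −log10 q of 10 or more. Depth limits single regions: the counting interval left out 1 for 1 of the 5 higher Gli3 regions.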
